A study of Mus musculus with 4 samples.

Results

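The 10 genes described here mark cells of the hippocampus that do not come from its neural progenitors. Cx3cr1, P2ry12, Csf1r, Tmem119, Aif1 and Spi1 mark microglia, Cldn5, Pecam1 and Kdr mark the endothelium of blood vessels, and Pdgfrb marks the mural cells that wrap capillaries. They were chosen by name, as genes of non-neural cells in the dissected tissue, with earlier results of these data known. They are 10 of the 21938 protein-coding genes of the annotation. A gene had a promoter peak when the summit of a peak lay within 2 kb of one of its transcription start sites (TSSs), and peaks in the gene body and 20 kb either side were listed as well.

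Open chromatin was mapped by ATAC-seq, in which Tn5 transposase inserts adapters into open chromatin, in nuclei of hippocampi dissected at postnatal day 0 (P0) from mice, with 2 cKO and 2 Ctrl samples. The cKO genotype was Kdm2bEmx1-delta-CxxC, in which Emx1-Cre removes the CxxC zinc finger that carries KDM2B, a subunit of a variant Polycomb complex, to CpG islands (CGIs). Emx1-Cre acts in progenitors of the dorsal telencephalon and the neurons and glia they form, a lineage that does not include microglia or vessel cells. The Ctrl genotype was Kdm2bfl/+ or Kdm2bfl/fl, and the labels do not say which Ctrl library had which. The labels name neural progenitor cells (NPCs) in the field for the cell line but hippocampus in the titles and the protocol, and they do not say whether the 2 samples of a group were separate animals, so the spread between them may be technical.

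The libraries are called Ctrl rep1, Ctrl rep2, cKO rep1 and cKO rep2 here. Each gave 1 list of peaks, and the lists differed greatly in length, from 7037 peaks in Ctrl rep2 to 46389 in Ctrl rep1. Ctrl rep2 stood apart, because its background depth was the highest of the 4 libraries, 3.46 fragments against 1.62 to 2.07 in the others, while its list was the shortest. Of 10 genes used in most cells, 10 had a promoter peak in each of the other 3 libraries and 3 had one in Ctrl rep2. At the mean background, the weakest listed peak held 7 fragments in Ctrl rep1, 12 in Ctrl rep2, 9 in cKO rep1 and 8 in cKO rep2. A promoter below that depth is not in a list, so a missing peak was not detectable at this depth and is not a measure of closed chromatin.

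Microglia are the resident macrophages of the brain, arise from yolk sac precursors that enter it early in development, and depend on signals through CSF1R and on the transcription factor PU.1, the product of Spi1. Endothelial cells of the brain grow in under the control of VEGF acting on its receptor KDR, seal their junctions with claudins such as CLDN5 and recruit pericytes through PDGF acting on PDGFRB. Both cell classes are a minority in the hippocampus at birth, and in bulk nuclei a small number of cells with an open promoter cannot be told apart from many cells with a weakly open one.

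Promoter peaks were listed for 2 of the 10 genes, Kdr and Tmem119, and for none of the other 8 in any library. In Ctrl rep1 both had one, in cKO rep1 only Kdr, in cKO rep2 only Tmem119, and in Ctrl rep2 neither. The peaks in the cKO libraries were weak, with a −log10 q of 3.12 for Kdr and 4.55 for Tmem119 against 10.3 and 6.68 in Ctrl rep1. With −log10 q of at least 5 only those of Ctrl rep1 were left, and in lists of equal length none. The same libraries listed a promoter peak for 58% of all protein-coding genes in Ctrl rep1, 8.27% in Ctrl rep2, 40.3% in cKO rep1 and 55.9% in cKO rep2. The count of the 10 genes was thus below the share of all genes in each library, but 8 of the 10 have no CGI within 2 kb of a TSS, against 44.3% of protein-coding genes. Among protein-coding genes without a CGI the share was 21.1% in Ctrl rep1, 1.52% in Ctrl rep2, 10.6% in cKO rep1 and 19% in cKO rep2, and among the 8 genes it was 1 gene, none, none and 1 gene. Read against genes of that kind, the count of the 8 was close to the background. The 2 genes with a CGI, Kdr and Cldn5, gave 1 peak in Ctrl rep1, 1 in cKO rep1 and none in the other libraries, whereas genes with a CGI had a peak in 87.3%, 13.6%, 63.8% and 85.1% of cases in Ctrl rep1, Ctrl rep2, cKO rep1 and cKO rep2. Having no promoter peak in any library, as 8 of the 10 genes did, was the case for 39.8% of all protein-coding genes, 76.8% of those without a CGI and 10.5% of those with one.

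**Figure D1:**
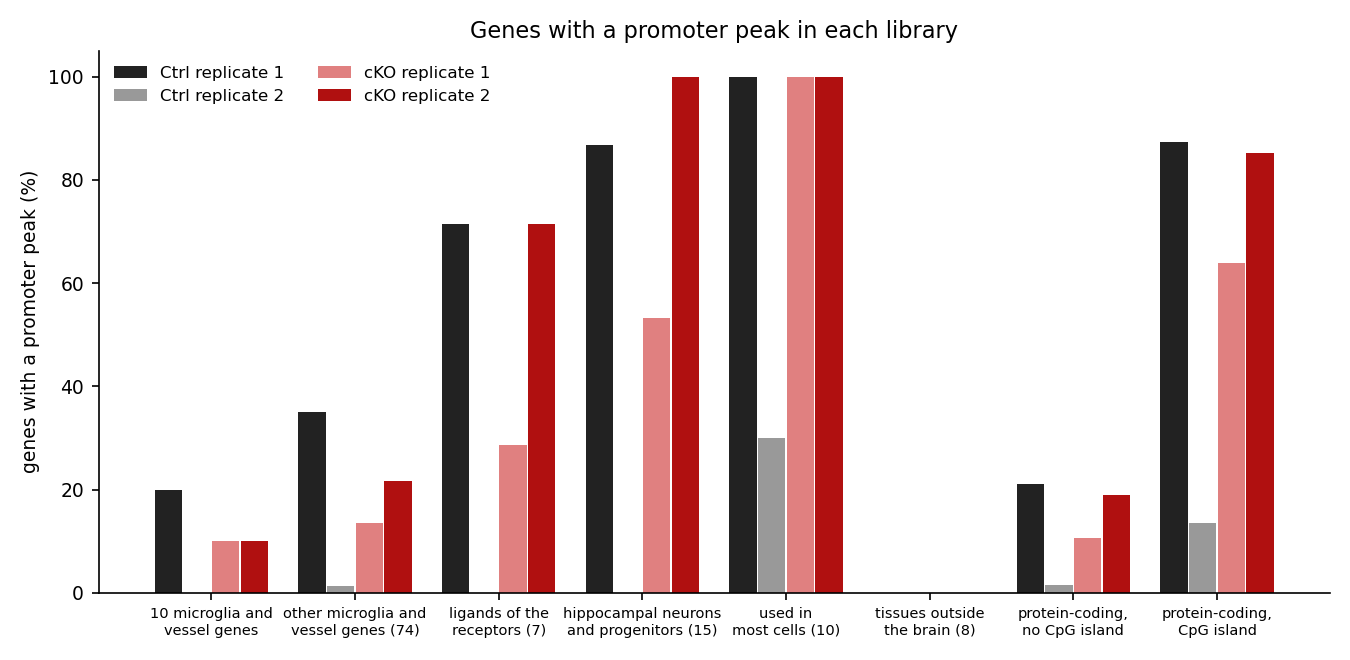
Bars give the percentage of genes with a promoter peak (y axis, from 0) in each of the 4 libraries (colours), for the 10 microglia and vessel genes, for 5 other gene lists with their size in brackets, and for protein-coding genes without and with a CpG island. The 10 genes reach at most 2 of 10, near the genes without an island and, except in Ctrl rep2 where both are at 0, below the neural list, and no bar stands over the tissues outside the brain because none of those 8 genes had a peak.

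Kdr, the main VEGF receptor of endothelium, lies at chr5:75932827-75978458 (mm10, minus strand) and has a single TSS inside a CGI of 547 bp at chr5:75978111-75978657. In Ctrl rep1 its promoter peak had its summit 255 bp downstream of the TSS and held 19 fragments (95% exact Poisson interval 11.4 to 29.7, counting error only). In cKO rep1 the summit was 211 bp downstream and held 11 fragments (5.49 to 19.7). Ctrl rep2 and cKO rep2 had no peak there. Both summits lie in exon 1, in the 5′ untranslated region of transcript Kdr-201. Scaled depth, the fragments at the summit divided by the mean background of the library, was 11.7 in Ctrl rep1 and 5.3 in cKO rep1, against a median over all peaks of 11.1 and 8.68 in those lists. The peak ranked 20726 of 46389 by −log10 p in Ctrl rep1 and 18627 of 21404 in cKO rep1. It was thus of middling strength in the first list and among the weak peaks of the second. The counting intervals of the fragments overlap, but they are not scaled to the background depth of each library.

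The sequence upstream of the Kdr TSS is shown because it is the only promoter of the 10 genes that both has a peak in 2 libraries and an entry in the promoter table, and that of Cldn5, chosen after its values were seen, is set beside it as the other gene with a CGI, which had no peak. Both are written 5′ to 3′ on the strand of the gene, up to the base before the TSS, from RefSeq (GRCm38.p6). Capitals mark GGGCGG or its complement, the letters bound by SP and KLF factors.
Kdr promoter, chr5:75978459-75978705, minus strand: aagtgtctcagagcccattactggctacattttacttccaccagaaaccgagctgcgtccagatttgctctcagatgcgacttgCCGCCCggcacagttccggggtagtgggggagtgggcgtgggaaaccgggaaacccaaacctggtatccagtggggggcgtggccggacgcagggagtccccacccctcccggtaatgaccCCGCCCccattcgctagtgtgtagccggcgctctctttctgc
Cldn5 promoter, chr16:18776597-18776846, plus strand: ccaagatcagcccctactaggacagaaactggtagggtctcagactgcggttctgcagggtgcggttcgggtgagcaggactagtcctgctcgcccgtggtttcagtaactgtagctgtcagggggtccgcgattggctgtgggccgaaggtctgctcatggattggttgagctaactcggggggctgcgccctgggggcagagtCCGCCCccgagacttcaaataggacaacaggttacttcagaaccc
The Kdr stretch holds 16 CG pairs and 2 matches, and the Cldn5 stretch 12 CG pairs and 1 match. Over the 300 bases of the table the GC content was 60.7% for Kdr and 58.3% for Cldn5, and the ratio of observed to expected CG pairs 0.689 and 0.476. The table also held the promoters of Cx3cr1 (ratio 0.228), P2ry12 (0.302) and Aif1 (0.0658), which lie below the median of 0.384 over 32851 promoters, and it was matched for 5 of the 10 genes. Searched on both strands over the 300 bases, GGGCGG was in 35.7% of all promoters and in those of Kdr and Cldn5. AACAAT, a SOX motif, was in 10.7% and in that of Aif1. GAGGAAGT, a PU.1 motif (3.2% of promoters), CCGGAAG, an ETS motif that shares the letters GGAAG with it (8.86%), and TGACGTCA, a CREB and ATF motif (1.79%), were in none of the 5. A match is a run of letters and not a measured site.

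Tmem119, a membrane protein found in microglia but not in other brain macrophages, lies at chr5:113793729-113800516 (minus strand), with 1 TSS and no CGI. In Ctrl rep1 its peak had its summit 167 bp downstream of the TSS and held 14 fragments (95% exact Poisson interval 7.65 to 23.5). In cKO rep2 the summit was 200 bp downstream and held 15 fragments (8.4 to 24.7). Ctrl rep2 and cKO rep1 had none. Scaled depth was 8.63 and 8.3, below the list medians of 11.1 and 11.1. The counting intervals of the peak overlap between the Ctrl library and the cKO library that had it. They are not scaled to background depth and leave out the libraries without the peak, so they do not compare the groups. Both summits lie in exon 1 of Tmem119-201, in its untranslated part.

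The promoter percentile of a gene gives the percentage of the protein-coding genes of that library ranked below it by their best promoter peak, and is 0 for a gene with none. A gene with a peak cannot fall below 42 in Ctrl rep1, 91.7 in Ctrl rep2, 59.7 in cKO rep1 or 44.1 in cKO rep2, because the genes without a peak fill the lower ranks, so the percentile moves with the length of the list and orders genes within a library. Kdr stood at 55 in Ctrl rep1 and at 61.2 in cKO rep1, where its peak had the lower scaled depth, and Tmem119 at 49.3 in Ctrl rep1 and 47.7 in cKO rep2. Each of these values was thus in the lower part of the range open to a gene with a promoter peak in its library, and the plot of promoter percentiles shows them not far above the dotted line.

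**Figure D2:**
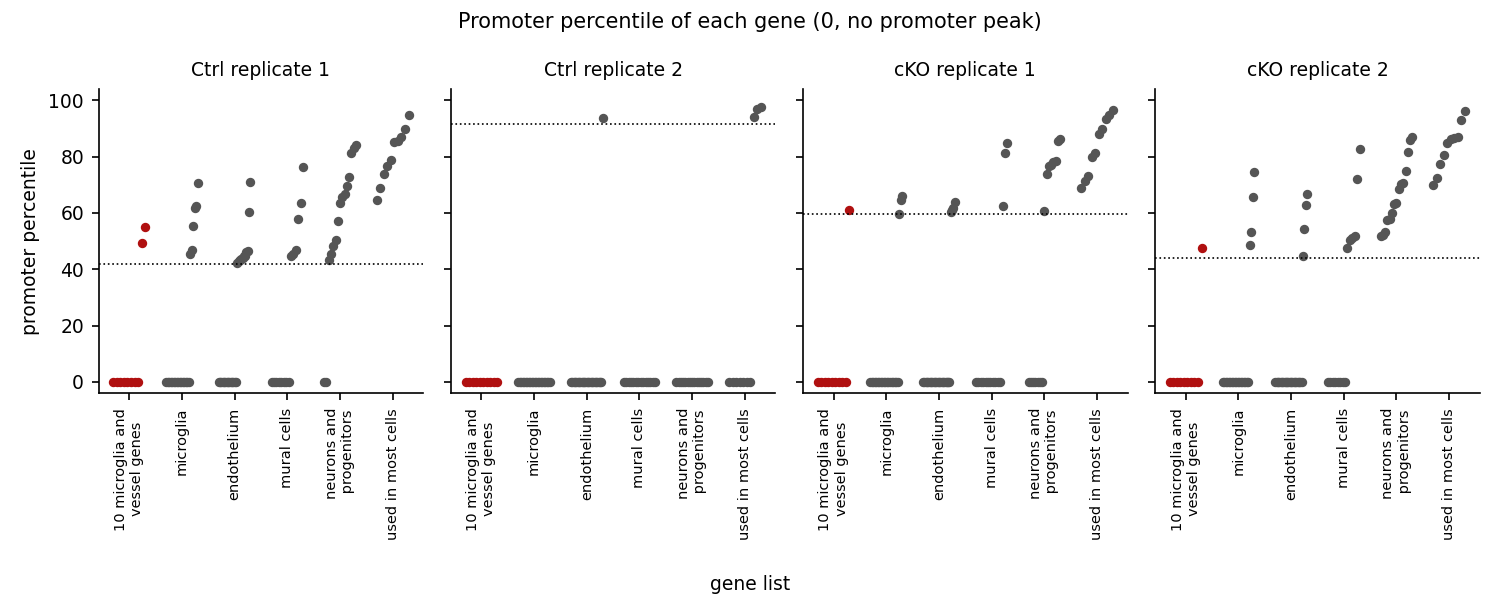
Each point is a gene, placed by its promoter percentile (y axis, 0 means no promoter peak) in the 4 libraries (panels), for the 10 microglia and vessel genes (red) and 5 other lists (grey); the dotted line is the lowest value a gene with a peak had. Red points leave 0 only for Kdr and Tmem119, at 47.7 to 61.2.

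The other microglial genes had no peak within 2 kb of a TSS. Csf1r, the receptor that microglia need to survive, came closest, with a summit 2752 bp downstream of its nearest TSS, in intron 1 of Csf1r-202 on chromosome 18. That peak was in cKO rep2 alone, held 12 fragments and stood at percentile 7.48 of its list, on a scale where 100 is the strongest peak. A second region near Csf1r lay 29.1 kb downstream of the TSS, in intron 18 of the adjoining gene Hmgxb3, with 18 fragments in both Ctrl rep1 and cKO rep2. Its scaled depth of 11.1 and 9.96 made it the best-ranked region around Csf1r.

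Cx3cr1, the receptor for the neuronal chemokine fractalkine, has a long gene model (chr9:119901616-120069879, minus strand) because 1 transcript, Cx3cr1-202, runs far beyond the other 2, and its window holds several unrelated genes. Upstream of its TSSs, 2 intergenic regions were listed. At chr9:120081771-120082159, 12.1 kb upstream, Ctrl rep1 had 16 fragments and cKO rep2 had 11. At chr9:120080373-120080712, cKO rep2 alone had 14 fragments. The other 2 regions outside promoters lay in intron 2 of Cx3cr1-202, and neither falls within 20 kb of the shorter transcripts. The region 12.1 kb upstream was the better-ranked of those in Ctrl rep1, at percentile 39 of its list, but the lowest of the 4 in cKO rep2, at 6.44.

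Spi1, which encodes PU.1, lies at chr2:91082390-91115756 (plus strand). Ctrl rep1 had a peak of 12 fragments in coding exon 5 of Spi1-201, at chr2:91115106-91115334, and one of 9 fragments 17.7 kb upstream of the TSS, and no other library had either. P2ry12, the ADP receptor of surveying microglia, lies at chr3:59216272-59262871 (minus strand) and had no peak in its window in any library. The nearest summit to its TSSs was 23.4 kb away in Ctrl rep2, with 17 fragments, and 81.5 kb away in each of the other libraries, at the promoter of Igsf10. Aif1, which encodes the actin-binding protein IBA1, lies at chr17:35170991-35176068 (minus strand), and every peak in its window belonged to the promoter of another gene.

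Among the vessel genes, Cldn5, the claudin that seals the blood-brain barrier, lies at chr16:18776847-18778262 (plus strand) and had no peak in its window in any library, although a CGI of 832 bp lies just downstream of its TSS, at chr16:18777115-18777946. The nearest summit was that of the shared promoter of Cdc45 and Ufd1, 35 to 35.3 kb downstream in the 3 libraries other than Ctrl rep2, with scaled depths of 48.1, 13 and 38.7. Pdgfrb, the receptor by which pericytes respond to PDGF, had 1 region in its window, in intron 2 of Pdgfrb-202, 7.43 kb downstream of the TSS on chromosome 18. It was in cKO rep2 alone, with 16 fragments.

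Pecam1, the adhesion molecule CD31 of endothelial junctions, had 4 regions in its window, all of them in its introns and none within 2 kb of its 5 TSSs (chr11:106654217-106750628, minus strand). The region at chr11:106674727-106675112, in intron 14 of Pecam1-201 with summits 40400, 40418 and 40399 bp downstream of the nearest TSS, was the only one of all 16 found in 3 libraries. It held 24 fragments in Ctrl rep1 (95% exact Poisson interval 15.4 to 35.7), 15 in cKO rep1 (8.4 to 24.7) and 21 in cKO rep2 (13 to 32.1). Its scaled depth was 14.8, 7.23 and 11.6, at percentiles 59.6, 37.7 and 42.7 of the lists, so it was near the middle of all peaks. The counting intervals of the 3 libraries overlap, but they are not scaled to background depth. A second region, at chr11:106658028-106658402 in intron 15 of Pecam1-204, held 16 fragments in Ctrl rep1 and 18 in cKO rep2.

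Within Kdr, a region at chr5:75954328-75954583 in intron 15 of Kdr-201, 24 kb downstream of the TSS, held 11 fragments in Ctrl rep1 and 20 in cKO rep2. In cKO rep2, which had no peak at the Kdr promoter, this intronic peak stood at percentile 58.1, and in Ctrl rep1 at 22.6. The 200 bases around the summits of the Pecam1 and Kdr introns are shown, on the strand of each gene, because the first was found in the most libraries and the second is the only site outside the promoter of Kdr. The Kdr site was weak in Ctrl rep1, with a −log10 q of 4.44 against 12.3 in cKO rep2. None of the 5 motifs above occurs in them, so there are no capitals.
Pecam1 intron 14, chr11:106674759-106674958, minus strand: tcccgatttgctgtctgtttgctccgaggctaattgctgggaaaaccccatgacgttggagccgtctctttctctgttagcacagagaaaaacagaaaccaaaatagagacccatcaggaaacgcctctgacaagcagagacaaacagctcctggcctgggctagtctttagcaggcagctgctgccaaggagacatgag
Kdr intron 15, chr5:75954395-75954594, minus strand: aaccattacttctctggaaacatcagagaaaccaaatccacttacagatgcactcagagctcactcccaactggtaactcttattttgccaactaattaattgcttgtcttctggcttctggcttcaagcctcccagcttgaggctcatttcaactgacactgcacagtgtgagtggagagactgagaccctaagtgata
The Pecam1 stretch holds 5 CG pairs and the Kdr stretch 0. In 31185 windows of the same length around summits outside promoters in Ctrl rep1, GAGGAAGT was in 1.09%, CCGGAAG in 1.23%, GGGCGG in 5.69%, AACAAT in 11.2% and TGACGTCA in 0.35%.

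**Figure D3:**
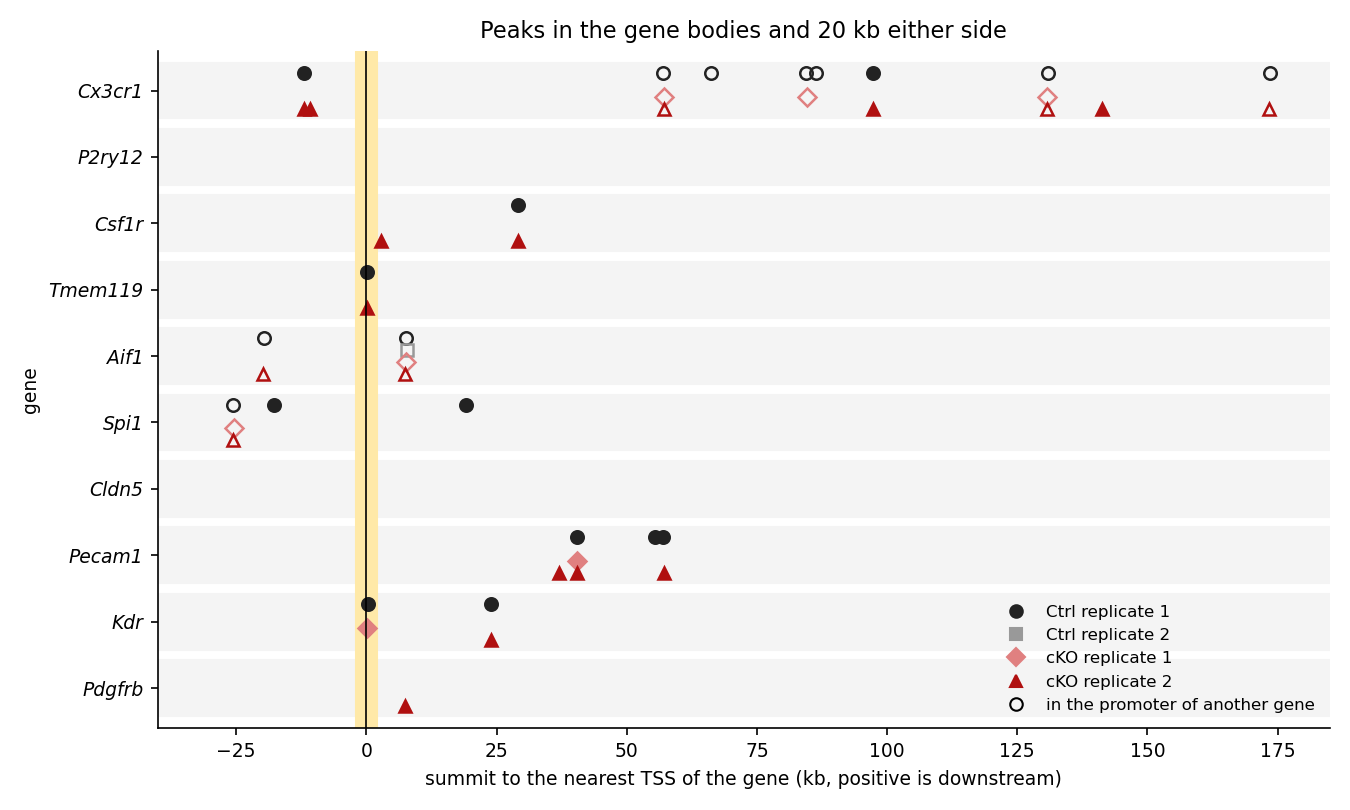
Each marker is a peak summit, placed by its distance to the nearest TSS of the gene in kb (x axis, positive downstream) in the row of the gene; colour and shape give the library, open markers lie in the promoter of another gene and the yellow band is the 2 kb either side of the TSS. Filled markers enter the band only for Tmem119 and Kdr, and the rows of P2ry12 and Cldn5 are empty.

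In all, 25 merged regions lay in the 10 windows, and 16 of them were outside the promoters of other genes. These 16 were spread over 7 genes, with 2 in promoters, 14 elsewhere and 1 touching a CGI. By library they numbered 11 in Ctrl rep1, 0 in Ctrl rep2, 2 in cKO rep1 and 12 in cKO rep2. At least 1 such peak was found for 6, 0, 2 and 6 of the 10 genes in that order, against 62%, 15.3%, 40.8% and 60.4% of protein-coding genes. In the 2 longest lists the share of the 10 genes was therefore close to that of all genes, although the median window of the 10 was longer, 76.6 kb against 57.4 kb. Per 100 kb of window there were 1.26, 0, 0.229 and 1.37 peaks for the 10 genes and 1.7, 0.207, 0.716 and 1.61 for all protein-coding genes. Their 25 peaks held 9 to 24 fragments, and 3 of the 25 stood above percentile 50 of their list, with a median of 31.6. The plot of scaled depth shows most of them below the list medians.

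Of the 16 regions, 7 were shared by Ctrl rep1 and cKO rep2, which is 63.6% of the 11 in the first and 58.3% of the 12 in the second. Over all regions outside promoters the shared part was 69.2% and 72.3%, and over all regions, promoters included, 74.8% and 78.2%. The 16 regions include 2 in promoters, so neither background is an exact match. Another 3 were in Ctrl rep1 alone, 5 in cKO rep2 alone and 1 in Ctrl rep1 and cKO rep1. Only 1 of the 16, or 6.25%, was in 3 libraries. Of all regions outside promoters 25% were in 3 or 4, and of all regions 32.9%.

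**Figure D4:**
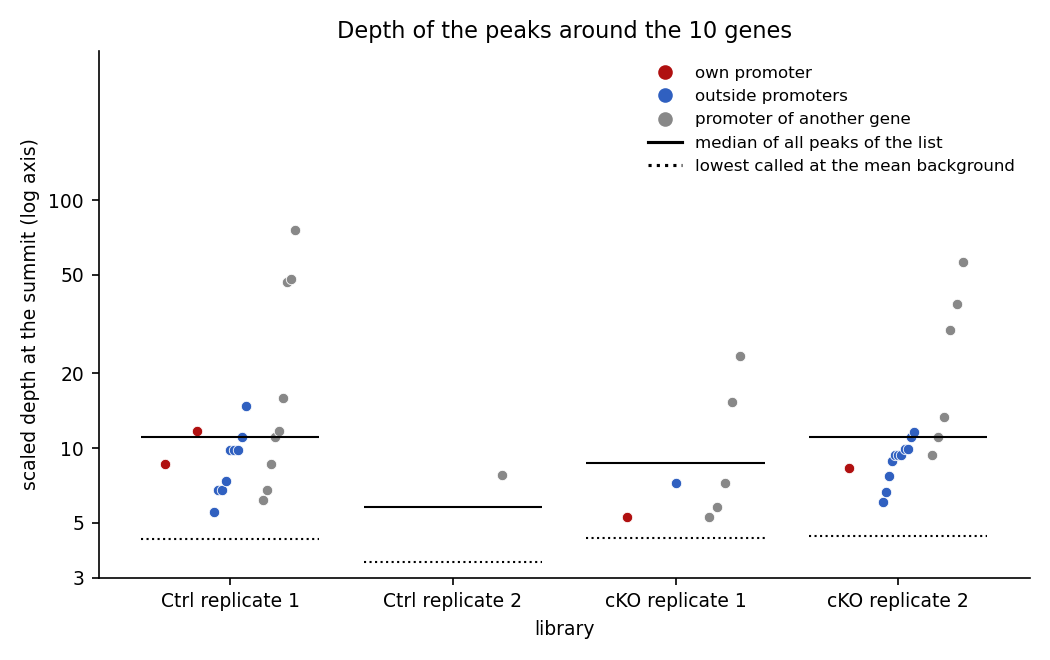
Each point is a peak in a window of the 10 genes, placed by its scaled depth (y axis, logarithmic) in the 4 libraries (x axis); colours separate peaks in the own promoter, outside promoters and in the promoter of another gene, solid lines mark the median of all peaks of the list and dotted lines the lowest listed at the mean background. Peaks of the 10 genes lie between 5.3 and 14.8, while those of neighbouring promoters reach 75.8.

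The deepest peaks in the windows belonged to neighbours. The shared promoter of Prrc2a and Gm17705, 7.46 to 7.81 kb downstream of the nearest Aif1 TSS (chr17:35164641-35165557), had a scaled depth of 75.8 in Ctrl rep1, 7.79 in Ctrl rep2, 23.6 in cKO rep1 and 56.5 in cKO rep2. It was the only region in any of the 10 windows with a peak in Ctrl rep2. The promoter of Ltb, which encodes lymphotoxin beta, gave 6.78 in Ctrl rep1 and 9.41 in cKO rep2 near the other end of the Aif1 window. Upstream of Spi1, the promoter of Slc39a13, a zinc transporter gene, gave 48.1 in Ctrl rep1, 15.4 in cKO rep1 and 38.2 in cKO rep2. Inside the long model of Cx3cr1, the region at the start of the noncoding gene Gm49427 gave 46.9, 7.23 and 29.9 in those 3 libraries, and weaker peaks lay at Gorasp1 and Ttc21a, at Csrnp1 and 1700019L13Rik and at Gm47043, and, beyond the end of the model but within 20 kb of it, at Wdr48 and Gm2449. Of the 9 neighbouring regions 7 touch a CGI.

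Other genes of the same cells were counted in the same way. A summit within 2 kb of the TSSs of several genes counted for each of them. In this and the lists below, promoters shared with a neighbouring gene were not set apart. A peak at a listed gene thus does not show which gene or which kind of cell it belonged to. Of 22 further microglial genes, 6 had a promoter peak in Ctrl rep1, 0 in Ctrl rep2, 3 in cKO rep1 and 4 in cKO rep2. The genes named in this and the other lists are examples, and the choice does not give their order within each library. Apart from Cx3cl1 among the ligands, they had the highest mean percentile over the 4 libraries. They were Irf8, a transcription factor that acts with PU.1, at percentile 70.5, 64.6 and 74.6 in the libraries other than Ctrl rep2, Olfml3 at 62.3, 66.1 and 53.3, and Sall1, a microglial identity factor that neural progenitors also express, at 61.8 in Ctrl rep1 and 65.6 in cKO rep2. None of the 6 genes of border macrophages, among them Cbr2, Cd163 and F13a1, had a promoter peak.

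Of 25 further endothelial genes, 11, 1, 4 and 4 had a promoter peak in Ctrl rep1, Ctrl rep2, cKO rep1 and cKO rep2. Slc2a1, the glucose transporter GLUT1, which other brain cells also use, was the only one with a peak in all 4 libraries, at 70.9, 93.8, 63.8 and 66.6. The transporter gene Abcg2 stood at 60.5, 61.9 and 62.8 in the 3 libraries other than Ctrl rep2, and the VEGF receptor gene Flt1 at 44 in Ctrl rep1 and 61.2 in cKO rep1, close to the lowest value of a listed gene in both.

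Of 14 further mural genes, 6, 0, 3 and 6 had one. They included Vtn, which encodes vitronectin, at 76.4, 85 and 82.8 in the 3 libraries other than Ctrl rep2, Zic1 at 58, 81.4 and 72, and Foxc1 at 63.5, 62.4 and 50.5. Among 7 fibroblast genes, 3, 0, 0 and 2 had one, the collagen gene Col1a1 at 56.6 in Ctrl rep1 and 53.1 in cKO rep2, Pdgfra and Col1a2. Pdgfra is also in the list of astrocytes and the oligodendrocyte lineage and counts in both, so its peaks are not assigned to either. Among red cell genes, Klf1, a transcription factor of their precursors, stood at 73.3 in Ctrl rep1, 69.5 in cKO rep1 and 79 in cKO rep2, and Alas2 and the globin genes listed had no peak.

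Over the 74 further microglial and vessel genes together, 26, 1, 10 and 16 had a promoter peak, or 35.1%, 1.35%, 13.5% and 21.6%. With a peak in any library counted, 21 of the 31 with a CGI and 6 of the 43 without one had a peak, so most of the listed genes had a CGI. Over all protein-coding genes, as given above, 10.5% of those with a CGI and 76.8% of those without one had no promoter peak in any library. Put on the same measure, the 74 genes had a peak less often than all protein-coding genes, with a CGI and without one. The reason was not tested.

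The ligands of the receptors among the 10 genes are made by several kinds of brain cell, neurons among them. Of 7 such genes, 5, 0, 2 and 5 had a promoter peak in the 4 libraries in the order above. Vegfa, the ligand of KDR, stood at 65.2 in Ctrl rep1, 71.9 in cKO rep1 and 58.5 in cKO rep2, above Kdr itself in the 2 libraries that listed both. Pdgfd stood at 52.9, 62.8 and 46.7 in those libraries, the lowest of the 5 listed ligands in cKO rep2, and Vegfc at 51.8 in Ctrl rep1 and 58.6 in cKO rep2. Cx3cl1, which encodes fractalkine, had a peak in Ctrl rep1 and cKO rep2 (54.1 and 47.2), where its receptor gene had none.

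The labelled tissue was checked on 15 genes of hippocampal neurons and progenitors, of which 13, 0, 8 and 15 had a promoter peak, Lhx2 and Tubb3 among them, while 0 of 8 genes of tissues outside the brain had one in any library. Of 9 genes of astrocytes and the oligodendrocyte lineage, 5, 0, 3 and 5 had one, Aqp4, Gfap and Slc1a3 among them. These counts include Pdgfra, which was counted among the fibroblast genes as well. Setting the 10 genes beside these lists is a description, since the lists differ in their share of genes with a CGI. Of the 15 neural genes 11 have a CGI, as do all 10 genes used in most cells (Hnrnpa2b1, Polr2a and Actb among them). A CGI was found at 2 of the 10 microglia and vessel genes and at 2 of the 8 genes of tissues outside the brain. The lack of peaks at those 8 genes is thus a description as well.

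Between the groups, the 10 genes did not separate. On average 1 gene had a promoter peak in a cKO library and 1 in a Ctrl library, a difference of 0, and without Ctrl rep2 the difference was −1 gene. The mean promoter percentile of Kdr was 30.6 ± 43.3 (SD, n = 2) in cKO and 27.5 ± 38.9 in Ctrl, a difference of 3.11 (exact two-sided permutation test over 6 assignments, p = 1, Benjamini-Hochberg adjusted p = 1 over 13196 genes). Its sign has no weight, since it turned to −3.21 in scaled depth, to −8.79 with mid-ranks in place of 0, to −27.5 with −log10 q of at least 5 and to −24.4 without Ctrl rep2. That of Tmem119 was 23.8 ± 33.7 in cKO and 24.7 ± 34.9 in Ctrl, a difference of −0.843 (same exact permutation test, p = 1, adjusted p = 1, n = 2 in each group). It became −25.5 without Ctrl rep2 and −24.7 with −log10 q of at least 5, and turned to 23.8 without Ctrl rep1 and to 23 without cKO rep1. With 2 libraries against 2 the smallest p this test can give is 0.33, so it could not have called any gene. Neither gene was higher in both cKO libraries than in both Ctrl libraries or lower in both, as were 20.5% and 2.8% of the 13196 genes with a promoter peak in any library. In Ctrl rep2 most genes stood at 0, and the lowest value of a listed gene was higher in cKO rep1 than in Ctrl rep1. The part of list length in those shares was not tested, and nothing is read from them about the genotypes. The number of regions outside other promoters was on average 1.5 higher in cKO, a difference that became −4 without Ctrl rep2, and the 74 genes a difference of −0.5 gene that became −13 without it. With all 4 libraries, both differences are smaller than the gap between the 2 libraries of either group.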

How the data were processed

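ATAC-seq was run on 4 samples, 2 cKO and 2 Ctrl. By the study's methods, the authors used Cutadapt for trimming and Bowtie2 for alignment to mm10, removed mitochondrial, blacklisted and duplicate reads (Picard), applied the Tn5 offset and called peaks with MACS2 2.2.7.1. Each library has a peak list of its own, and whether a control was used is not given in the sources used here. The deposited columns hold a score, fold enrichment at the summit and −log10 p and −log10 q values, and no read totals. Background depth is known for each library, as given above, but the number of reads sequenced is not known from the files. Fragments at a summit were recovered from the deposited fold and −log10 p under the Poisson model of MACS2, and 99.986% to 100% of peaks gave a whole number (tolerance 0.01 in −log10 p). Counts of fragments and their intervals cover counting error only. A difference in list length between libraries changes every count, ranks and promoter percentiles included.

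Peaks were placed with GENCODE vM21 TSSs (basic transcripts, 77221 TSSs of 55413 genes), and regions are peaks that overlap by 1 bp or more, merged across libraries. CGIs were found in the part of mm10 not masked as repeats, as stretches of at least 200 bp with at least 50% GC and an observed to expected CG ratio over 0.6, giving 19251. Groups came from the labels. Promoter sequences came from RefSeq (GRCm38.p6), and other sequence from mm10. Percentiles were compared by exact two-sided permutation tests with Benjamini-Hochberg adjustment. Named genes were the 10 members and, in each other list, the 3 with the highest mean percentile, some of which are not reported here. The members and lists were chosen with earlier results of these data known. Alternatives changed the promoter width, the flank, the peak threshold, the list length, the TSS set, the merging and the percentile, and left out each library. The replicate numbers are not said to pair samples, and only 2 pairs exist. Methods were tested on simulated data. Python 3.11.15, numpy 2.4.6, pandas 2.3.3, scipy 1.17.1, numba 0.67.0, pysam 0.24.0 and matplotlib 3.10.9 were used.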

Additional observations from a re-analysis of the deposited data

How the results depend on the processing

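The difference between cKO and Ctrl in the number of the 10 genes with a promoter peak was 0 and ranged from −1 to 1 when a library was left out. No such gene had one in lists cut to the 7037 strongest peaks. With −log10 q of at least 5 the difference was −1. For the 74 further genes it was −0.5, became 0.5 in equal-size lists and 1.5 with −log10 q of at least 5, and ranged from −13 to 12 with a library left out. For the regions it was 1.5 and ranged from −4 to 7. In equal-size lists no region was left in any library, and with −log10 q of at least 5 there were 10 of the 16 and the difference was 0. The difference in percentile of Kdr, 3.11, turned to −27.5 with −log10 q of at least 5, −8.79 with mid-ranks in place of 0 and −3.21 in scaled depth (exact permutation p = 1 for each), and ranged from −27.5 to 33.7 with a library left out. That of Tmem119, −0.843, was −24.7 with −log10 q of at least 5 (exact permutation p = 1), −8.84 with mid-ranks (exact permutation p = 0.667) and 0 in equal-size lists, and ranged from −25.5 to 23.8 with a library left out. The causes were not tested. With the replicate number as a replicate block, the differences stayed at 0, −0.5 and 1.5 (exact p = 1, lowest possible 0.5), and those of Kdr and Tmem119 at 3.11 and −0.843. A window of Cx3cr1 without transcript Cx3cr1-202, chosen after seeing the data, gave 1 in place of 1.5.

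These values were limited by what could be listed and by the number of libraries. At the mean background the weakest listed peak held 7 to 12 fragments, depending on the library, and most peaks of the 10 genes held fewer than 20. Ctrl rep2 listed none of the 10 promoters. With 2 libraries a group, the exact permutation test could not give a p below 0.33 for any difference between genotypes.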
